A study of Curcuma longa with 2 samples.

Results

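The miR156/miR157 family of plant microRNAs was described in nanoparticles prepared from the root of turmeric, Curcuma longa. Its members were taken by name: every entry of the deposited table named miR156 or miR157, with any species prefix, together with the predicted entry PC-3p-5630_254. The rule set no threshold on reads. However, the predicted entry was added singly, and its name ends in its read total over both libraries. Members were also chosen with earlier results of these data known. The rule gave 16 of 266 lines and 12 distinct sequences, of 167 sequences with reads in the table. No line was named miR157 (0 lines), but 1 sequence named for miR156 has the letters known as miR157 in Arabidopsis.

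The study measured small RNA in 2 samples of 1 group, called library 1 and library 2 here, with no control and no second condition. The source was turmeric root and the material was nanoparticles, with no genotype, age or treatment in the labels. Nothing in the labels ties the samples to separate preparations, so any p-value and any spread measure only how these samples differ, which may be technical, and RNA inside the particles and RNA carried along with them cannot be told apart. Listed reads came to 96386 in library 1 and 72196 in library 2. Both are sums over the entries of a miRNA list, and the sequencing depth was not analysed here.

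MicroRNAs of plants are cut by a Dicer-like enzyme from a hairpin transcript as a duplex of a 5p and a 3p strand. In this family the 5p strand is the one known to be loaded into an Argonaute protein. It pairs almost completely with mRNAs of SPL (SQUAMOSA promoter binding protein-like) transcription factors, which are cleaved or held back from translation. In plants studied for it, miR156 is high in young shoots and declines with age, which frees SPL genes to promote the adult phase and flowering, partly through miR172. No SPL mRNA was measured here.

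The 6 sequences from the 5p arm carry the family's reads and differ mainly in where they start, so they are printed first. Each is written 5′ to 3′ as DNA letters (T stands for U in the RNA), with the seed, bases 2 to 8, in capitals. In the names, L and R with a number give bases added to or missing from the left and right end of the registered form, and "ss" marks a substitution.

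sbi-miR156a_L+1: tTGACAGAagagagtgagcac

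ppe-miR156c: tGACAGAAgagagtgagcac

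vca-miR156b-5p: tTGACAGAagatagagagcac

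bdi-miR156b-5p_L+2R-1: tTTGACAGaagagagtgagca

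osa-miR156a_R+1: tGACAGAAgagagtgagcacg

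aly-miR156a-5p_L+1: cTGACAGAagagagtgagcac

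The 6 sequences from the 3p arm follow, because 3 of them, the predicted entry included, are 1 sequence ending at different bases.

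PC-3p-5630_254: cTCACTGCtctgtctgtcatcgc

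bdi-miR156d-3p_L-1R+1_1ss21CT: cTCACTGCtctgtctgtcatcg

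osa-MIR156i-p3: cTCACTGCtctgtctgtcatc

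zma-miR156e-3p_L+1_1ss15TG: tGCTCACTgctctcgctgtcatc

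osa-MIR156i-p3_1ss16CT: tGCTCACTgctctgtttgtcatc

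vca-miR156b-3p: gCTCTCTAtgcttctgtcatc

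Together the 12 sequences had 7476.5 reads in library 1 and 5835.5 in library 2, where the reads of a sequence are the sum over its lines in the table. They made up 7.76% of the listed reads of library 1 (exact Clopper-Pearson 95% interval 7.59 to 7.93) and 8.08% of those of library 2 (7.88 to 8.28), or 7.92% ± 0.23 (SD, n = 2). The share in library 1 was 0.96-fold that in library 2. The intervals of the 2 libraries overlapped in part, which is not a test of a difference, and no test is given for the family's share. The intervals hold counting error alone, because PCR copies could not be told from molecules. With the value of a single line in place of the sum, the family had 10.4% of the listed reads.

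The family was mostly 1 arm. Sequences of the 5p arm, the known guide strand, held 96.0% of the family's reads in library 1 and 95.6% in library 2, and the 3p arm held 4.01% (3.58 to 4.48) and 4.35% (3.84 to 4.91). In the rest of the table the 3p arm held 55.2% ± 0.84 of reads (SD, n = 2). That share is summed over all other entries, whichever arm leads in a family, so it does not measure how far 1 arm leads. Without the predicted entry, the minor arm of miR156 held 2.33% of its reads, the fourth lowest of the 17 families with reads on both arms, whose median was 11.1%. The 17 include entries proposed to be rRNA or tRNA fragments, all of them above that median, so they raise it. The minor arm of the miR535 family, near miR156 in sequence, was lower than that of miR156, at 0.152%. These shares are descriptions of 2 libraries, with no test.

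Length and first base were also set beside those of the rest of the table, pooled over all other entries and with no test. Sequences of 21 nt held 77.9% ± 1.14 of its reads, against 57.0% ± 0.62 in the rest of the table (SD, n = 2 each). The 20-nt form held 19.5% ± 1.07, the 3 sequences of 23 nt 2.35% ± 0.058 and the 22-nt sequence 0.30% of the family's reads. A 5′ T (U in the RNA), the first base known to favour loading into AGO1 in Arabidopsis, stood on 96.2% ± 0.19 of the family's reads, against 75.2% ± 1.33 in the rest of the table. That rest includes entries proposed to be rRNA or tRNA fragments. The leading form of the miR535 family is also 21 nt long with a 5′ T, so neither trait is particular to miR156.

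**Figure D1:**
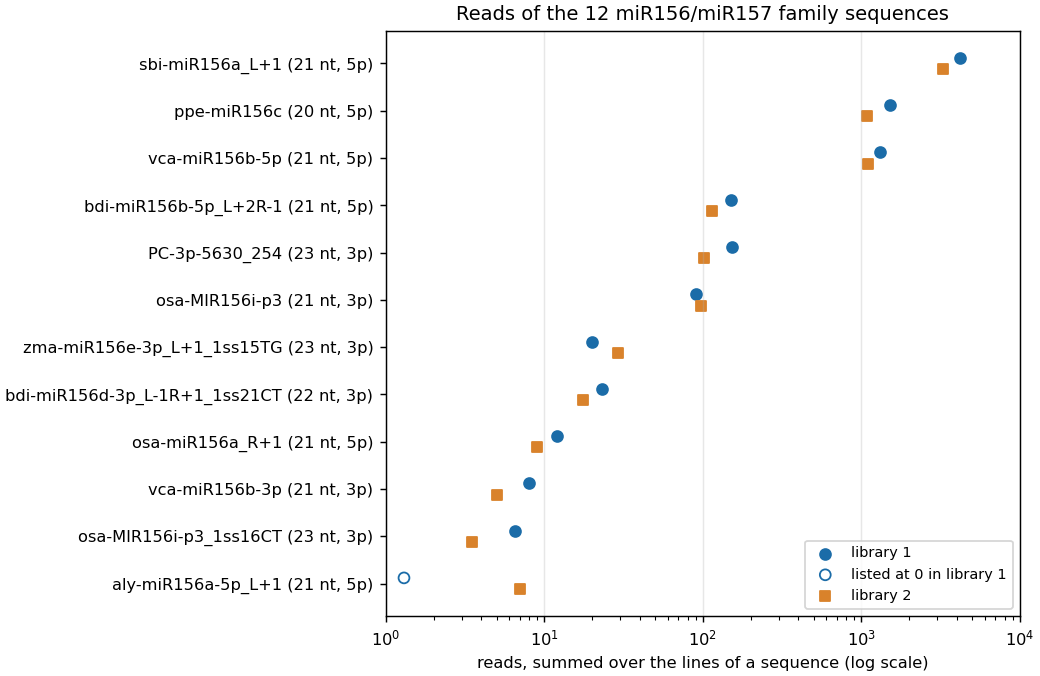
Reads of each of the 12 family sequences (rows, with length and arm) on a log axis, library 1 as circles and library 2 as squares; the open circle at the left edge marks the sequence listed at 0 in library 1. The sbi-miR156a_L+1 sequence leads with 4200 and 3263.83 reads, and ppe-miR156c and vca-miR156b-5p follow with 1091.67 reads or more in each library.

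The most abundant member was sbi-miR156a_L+1, the miR156 core with a T added at its 5′ end, at rank 9 in the table. It had 4200 reads in library 1 and 3263.83 in library 2, or 4.44% ± 0.12 of the listed reads (SD, n = 2). It made up 56.2% and 55.9% of the family in library 1 and library 2. It thus exceeded the sum of all other members in both libraries.

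The registered 20-nt form, listed as ppe-miR156c and again as nta-miR156a, is the miR156 sequence shared by many plants. It had 1512 reads in library 1 and 1091.67 in library 2, or 1.54% ± 0.040 of the listed reads (SD, n = 2). The leading form was above it in both libraries, by 2.78-fold in library 1 and 2.99-fold in library 2. The 20-nt form stands on 2 lines, and a single line holds 756 and 545.83 reads.

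The miR157-type form, vca-miR156b-5p, did not differ in abundance from the 20-nt form beyond the spread of the libraries. It had 1302 reads in library 1 and 1096 in library 2, or 1.43% ± 0.12 of the listed reads (SD, n = 2). The ratio of the 20-nt form to it was 1.16 in library 1 and 0.996 in library 2, so the order of the pair turned between the libraries. With single-line values the 20-nt form was below it in both libraries.

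Against the leading form, the miR157-type form carries G12T and T15A (the leading form's base, the position counted from the 5′ end, then the base of the miR157-type form). The seed is the same. The same seed, TGACAGA, stood on 3 sequences with 74.2% ± 0.88 of the family's reads, and the seed GACAGAA, shifted by 1 base, on 2 sequences with 19.6% ± 1.08 (SD, n = 2). The seed TTGACAG of bdi-miR156b-5p_L+2R-1 held 1.99% of the family's reads.

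The remaining 5p forms were minor. The bdi-miR156b-5p_L+2R-1 sequence, which starts 2 bases before the 20-nt form and ends 1 base before its end, had 151 reads in library 1 and 114 in library 2, or 0.157% ± 0.00088 of the listed reads (SD, n = 2). The osa-miR156a_R+1 sequence, the 20-nt form with a G at its 3′ end, had 12 and 9 reads. The aly-miR156a-5p_L+1 sequence, with C in place of the leading form's first T, was listed at 0 in library 1 and at 7 reads in library 2.

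The 5 forms with the miR156 core begin at 3 positions, and most of their reads began at 1 of them. A start 1 base before that of the 20-nt form was taken by 71.5% of their reads in library 1 and 72.9% in library 2. The start of the 20-nt form itself was taken by 25.9% and 24.5%, and a start 2 bases before it by 2.57% and 2.54%. The order of the 3 starts was the same in both libraries.

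**Figure D2:**
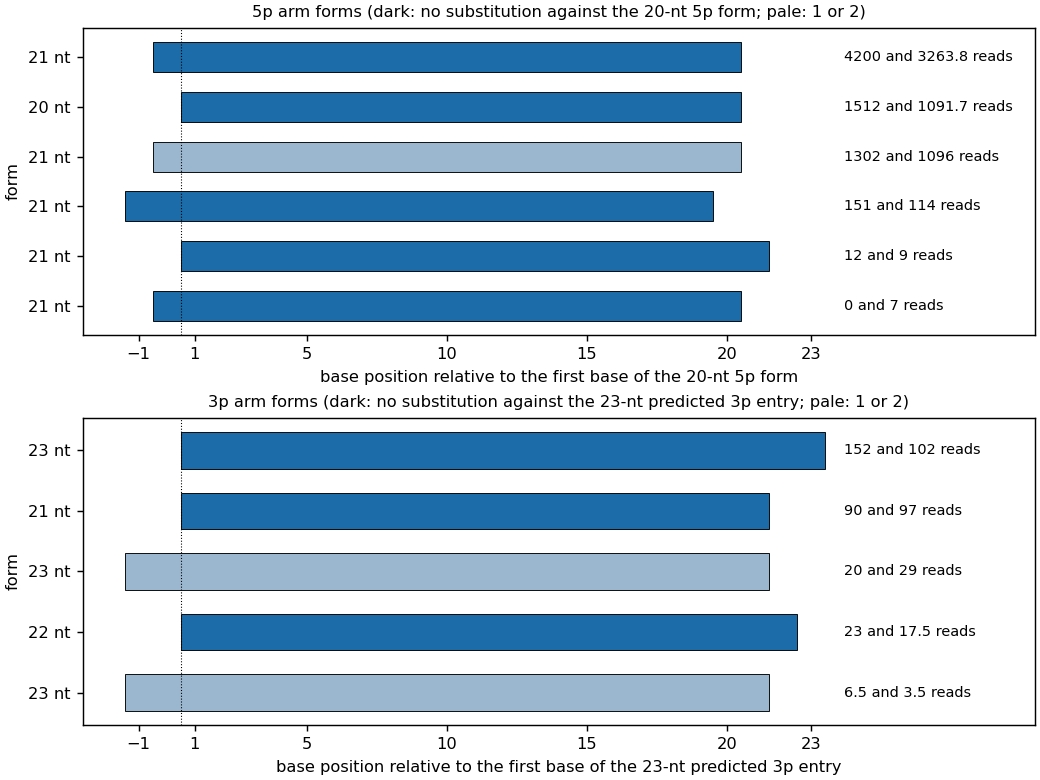
Extent of each form in bases, the 5p forms against the 20-nt form (upper panel) and the 3p forms against PC-3p-5630_254 (lower panel), with reads in library 1 and library 2 at the right and a pale bar for a form with 1 or 2 substitutions in the shared bases. The upper panel shows starts 2, 1 and 0 bases before the 20-nt form, and the lower panel shows 3 forms with 1 start and ends at 21, 22 and 23 nt. The vca-miR156b-3p sequence is left out because its placement on the predicted entry, made without gaps, has 9 mismatches.

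On the 3p arm, the strand known to be mostly discarded, the predicted entry PC-3p-5630_254 had the most reads in both libraries. It had 152 reads in library 1 and 102 in library 2, or 0.149% ± 0.012 of the listed reads (SD, n = 2). The counts of both libraries add up to the number at the end of its name. It has no registered miRNA name in the table.

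The predicted entry is the osa-MIR156i-p3 sequence with 2 more bases at its 3′ end. The osa-MIR156i-p3 sequence, listed also as bdi-miR156d-3p_L-1_1ss21CT, had 90 reads in library 1 and 97 in library 2, and the 22-nt bdi-miR156d-3p_L-1R+1_1ss21CT sequence had 23 and 17.5. These 3 nested sequences held 88.5% of the 3p reads in library 1 and 85.2% in library 2. Within them the 23-nt end took 57.4% in library 1 and 47.1% in library 2, the 22-nt end 8.68% and 8.08%, and the 21-nt end 34.0% and 44.8%, so the 22-nt end was the lowest of the 3 in both libraries.

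The other 3p sequences were low. The zma-miR156e-3p_L+1_1ss15TG sequence, with T15G against the registered maize form (registered base, position in the listed sequence, listed base), had 20 reads in library 1 and 29 in library 2. The osa-MIR156i-p3_1ss16CT sequence, with C16T against the sequence that the table quotes for this arm, had 6.5 and 3.5 reads, and the vca-miR156b-3p sequence 8 and 5. The registered Brachypodium form differs from the 22-nt sequence by C20T, counted in the same way.

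The 3p share was lower for the miR157-type hairpin than for the miR156 forms in both libraries. Its 5p form had 1302 reads against 8 for its 3p form in library 1, and 1096 against 5 in library 2, so that the 3p share was 0.611% (exact 95% interval 0.264 to 1.20) and 0.454% (0.148 to 1.06). For the remaining members, the 5 forms with the miR156 core and the other 5 of the 3p arm, the 3p arm had 291.5 reads against 5875 on the 5p arm in library 1, a share of 4.73%, and 249 against 4485.5 in library 2, a share of 5.26%. The intervals of the miR157-type hairpin lay below both of these values.

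Reads in both libraries, needed to order the members, were present for 11 of them. In 51 of their 55 pairs 1 member was above the other in each library, by a mean log2 ratio larger than the SD of that ratio. The other 4 pairs did not differ beyond their spread: the 20-nt form and the miR157-type form, bdi-miR156b-5p_L+2R-1 and PC-3p-5630_254, PC-3p-5630_254 and osa-MIR156i-p3, and zma-miR156e-3p_L+1_1ss15TG and bdi-miR156d-3p_L-1R+1_1ss21CT. PC-3p-5630_254 was 1.69-fold above osa-MIR156i-p3 in library 1 and 1.05-fold above it in library 2. The ordering rule is not a test and leaves out counting error. It also placed vca-miR156b-3p, at 8 reads in library 1 and 5 in library 2, above osa-MIR156i-p3_1ss16CT, at 6.5 and 3.5.

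By first name, only 3 of the 12 sequences are identical to a registered mature form: ppe-miR156c, vca-miR156b-5p and vca-miR156b-3p. They held 37.7% ± 0.12 of the family's reads, against 20.6% ± 0.23 for exact forms in the rest of the table (SD, n = 2 each). The 4 forms that differ from a registered sequence only at their ends held 58.3% ± 0.14, most of it the leading form. The 2 forms with a substitution against a registered sequence held 0.69% ± 0.16 of the family's reads. The 2 on an arm with no registered sequence, osa-MIR156i-p3_1ss16CT with its C16T among them, held 1.51% ± 0.31 (SD, n = 2 each).

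The table places the members on 12 distinct hairpins over 8 contigs of a turmeric assembly. The sources used here name neither that assembly nor its genes, so no exon or intron is stated. Contigs are called by the last digits of their names. Of the 12 hairpins, 10 hold a 5p form, and 20 bases of that form are paired in each of the 10. Their free energy index, a score for folding stability relative to length and base composition, was 0.8 to 1.2, with a median of 0.8 over 222 hairpins of the whole table. The remaining 2, on contig 171253 (minus strand, 121 to 167) and contig 205222 (minus strand, 620 to 723), had 0.7 and 0.6. They were listed for bdi-miR156b-5p_L+2R-1.

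Of these, 3 hairpins are printed, because the arms, the ladder of 3p ends and the mismatch of the predicted entry can be read on them. Capitals mark the sequences listed there. The miR157-type hairpin lies on the plus strand of contig 7556 from 107410549 to 107410638, and it is 1 of 2 hairpins listed for a form of each arm.

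miR157-type hairpin, contig 7556: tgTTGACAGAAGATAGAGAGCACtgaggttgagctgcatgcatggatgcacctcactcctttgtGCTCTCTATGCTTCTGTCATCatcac

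The hairpin listed for the osa-MIR156i-p3 sequence under its second name, bdi-miR156d-3p_L-1_1ss21CT, lies on the plus strand of contig 75556 from 36836592 to 36836717, and the one listed for the predicted entry on the minus strand of contig 30497 from 3119 to 3212.

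miR156 hairpin, contig 75556: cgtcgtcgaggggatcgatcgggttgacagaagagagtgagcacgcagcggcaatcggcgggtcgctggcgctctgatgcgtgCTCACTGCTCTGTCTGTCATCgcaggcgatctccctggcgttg

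miR156 hairpin, contig 30497: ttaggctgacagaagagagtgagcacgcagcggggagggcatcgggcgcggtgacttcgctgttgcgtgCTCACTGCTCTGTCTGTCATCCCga

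PC-3p-5630_254 did not match the hairpin it is listed on. It and the 22-nt 3p form each differ from the contig 30497 hairpin by C22G (hairpin base, position in the listed form, base of the form). Both are found letter for letter on the contig 75556 hairpin printed above, where they start at base 84, as the 21-nt form does. On that hairpin the 3 forms are 1 sequence ending after 21, 22 and 23 bases.

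Of the 12 members, 10 were found letter for letter on at least 1 of the 12 hairpins, but only 7 on a hairpin they are listed on. The 20-nt form was found on 9 hairpins, the leading form on 7, osa-miR156a_R+1 on 6 and osa-MIR156i-p3 on 3. The miR157-type form, its 3p partner and osa-MIR156i-p3_1ss16CT were each found on 1 hairpin. Reads of the 20-nt form therefore cannot be assigned to 1 of these 9 hairpins. A further 2 hairpins outside the naming rule, given under other observations, hold it as well.

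The other 2 members were found on none of the hairpins. The zma-miR156e-3p_L+1_1ss15TG sequence differs by T15G from the hairpin it is listed on, the same change as against its registered form. The bdi-miR156b-5p_L+2R-1 sequence differs by A16T from both of its listed hairpins, and by G1T, its first base, from the 7 hairpins that hold the leading form. The aly-miR156a-5p_L+1 sequence has no listed turmeric hairpin, but it is found letter for letter on the contig 30497 hairpin, where C precedes the 20-nt form.

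**Figure D3:**
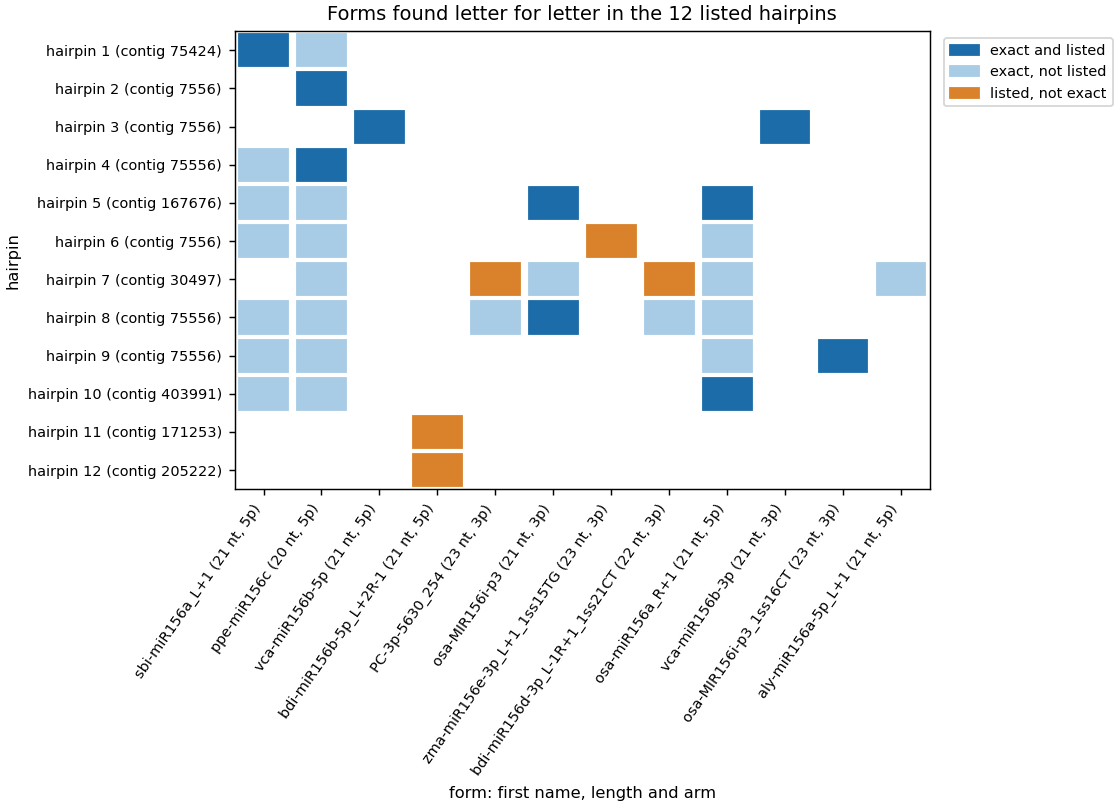
Members (columns) against the 12 hairpins (rows), dark blue where a member is found letter for letter on a hairpin it is listed on, pale blue where it is found on a hairpin not listed for it, and orange where it is listed but not found. The 20-nt form is found in 9 rows and the leading form in 7, while PC-3p-5630_254 is orange in the contig 30497 row and pale blue in a contig 75556 row.

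Several hairpins are near copies of each other. From the start of the 5p form to the base paired with it, the hairpins on contigs 167676 (plus strand, 706 to 793) and 403991 (plus strand, 368 to 467) were 97.6% identical. Those on contigs 75424 (minus strand, 2789 to 2892) and 75556 (plus strand, 89256577 to 89256687) were 96.7% identical, and those on contigs 7556 (plus strand, 36042530 to 36042675) and 75556 (minus strand, 40489039 to 40489176) were 95.3% identical.

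Plant duplexes cut by a Dicer-like enzyme typically leave short 3′ overhangs. On the miR157-type hairpin the listed pair leaves 1 base on the 3p strand and 2 on the 5p strand. The 20-nt form with osa-MIR156i-p3 leaves 2 bases on the 3p strand and 3 on the 5p strand, on each of the 3 hairpins that hold both. The leading form with the predicted entry, on the contig 75556 hairpin, leaves 1 and 3 bases. Other pairings on that hairpin gave 3p-strand values from -1 to 4. The -1 is the leading form with osa-MIR156i-p3, where the 3p strand ends 1 base short. The 4 includes the 20-nt form with the predicted entry. Both of these pairs leave 3 bases on the 5p strand. The overhang there thus depends on which forms are paired, and which forms were paired was not tested.

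The libraries were compared sequence by sequence with a two-sided exact binomial test, adjusted by the Benjamini-Hochberg method over all 167 sequences, which compares these libraries by their reads and no conditions. Of the 12 members 2 passed at 0.05, where 13.8% of all sequences passed (23 of 167). The miR157-type form had 1.35% of the listed reads in library 1 and 1.52% in library 2, a log2 ratio of -0.17 (exact 95% interval -0.29 to -0.05; exact adjusted p = 0.0392). The aly-miR156a-5p_L+1 sequence, at 0 reads in library 1 and 7 in library 2, had an exact adjusted p of 0.0245. With single-line values or with the family's own reads as the expected split, the adjusted p of the miR157-type form was 0.124 and 0.260 (exact binomial test).

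The remaining members did not pass. At an unadjusted p under 0.05 there were 4 of 12 members, where 24.0% of all sequences (40 of 167) were under it. The added members were osa-MIR156i-p3, at 0.0934% in library 1 and 0.134% in library 2, and zma-miR156e-3p_L+1_1ss15TG, at 20 and 29 reads. The leading form was 0.96-fold in library 1 relative to library 2 (exact adjusted p = 0.358) and the 20-nt form 1.04-fold (exact adjusted p = 0.748). PC-3p-5630_254 was 1.12-fold (exact adjusted p = 0.783). The shares of 10 of the 12 members were within 1.5-fold between the libraries, as were those of 122 of all 167 sequences.

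**Figure D4:**
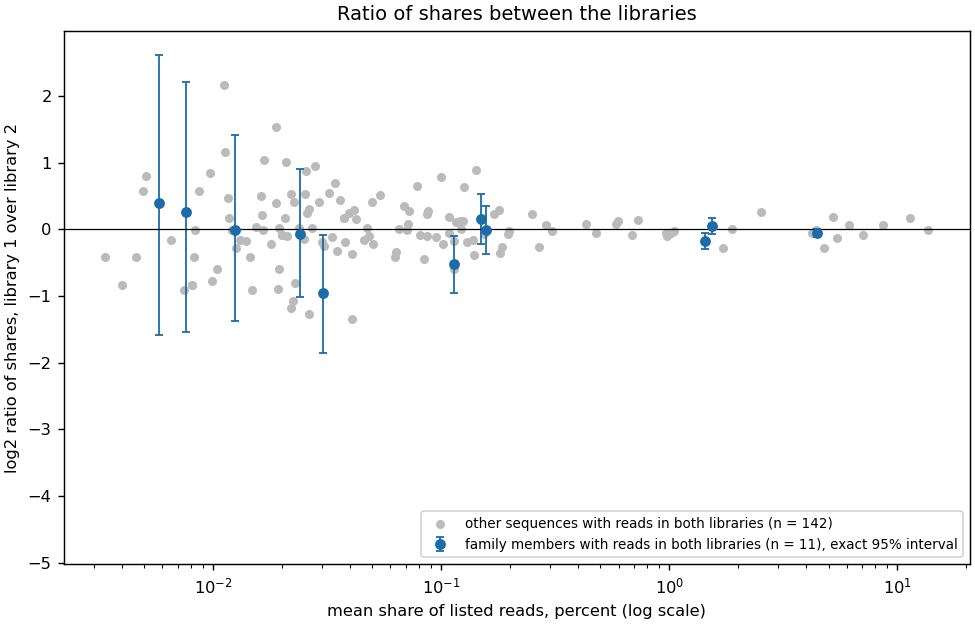
Log2 ratio of shares, library 1 over library 2, against the mean share of listed reads on a log axis, for 11 family members with exact 95% intervals (blue) and 142 other sequences (grey) with reads in both libraries. The 3 most abundant members lie between -0.17 and 0.05, and the widest intervals belong to members with few reads.

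Families near miR156 in sequence or pathway were read as summed shares. The miR156/miR157 family, at 7.92% ± 0.23 of the listed reads, was below the miR535 family, whose leading form resembles miR156 and whose 6 sequences held 9.74% ± 0.072 (SD, n = 2 each). The leading miR535 form, tGACAACGagagagagcacgc, shares the first 5 bases with the 20-nt miR156 form and matches it at 17 of 22 aligned positions. The miR172 family, which acts after SPL genes in the ageing pathway, held 0.176% ± 0.014 (SD, n = 2), with 179 reads in library 1 and 120 in library 2. No sequence with reads was named miR529, a relative of miR156 that also targets SPL genes, in the entries used here (0 sequences).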

How the data were processed

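The 2 libraries, 1 group, hold small RNA. Per the labels' protocols, they were made with TruSeq small RNA chemistry from column-purified total RNA and sequenced on an Illumina instrument. CASAVA 1.8.4 and cutadapt 1.10 are listed, with no role, in the submitters' processing notes. Plant miRBase entries served for matching and hairpins were placed on a genome, per the file headers. Of the miRBase release, the aligner and the assembly, none is given in the sources used here.

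The authors deposited an expected count per line and library, some values fractional, called raw in the header. The authors also deposited a normalized signal, which by its values is the raw column times 0.508 in library 1 and 0.923 in library 2. The free energy index is a score, and the hairpin length and free energy other values, that the authors deposited per hairpin. Of 278 lines, 12 are empty here and not analysed here, so totals and statements of no reads cover 266 lines and 186 distinct sequences, 167 with reads. A further 2 value columns match no sample of this series and were not used.

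The reads of a sequence were summed over its lines, because the lines of 1 sequence carry equal, often fractional values. Fractional single-line values stood on 3 of 16 member lines in library 1 and 9 of 16 in library 2, against 1 of 12 and 4 of 12 sequences after summing (tolerance 1e-06), so the division is not fully resolved. The smallest value above 0 was 2.5 reads, so no upper limit is given for a 0. Shares, in percent of listed reads, are given as mean ± SD with exact Clopper-Pearson 95% intervals per library. Reads were rounded for the intervals and for the exact binomial test. That test was run on simulated whole-number splits drawn from its own model, without PCR copies or added spread between libraries. The simulation therefore cannot show that the model holds for these libraries. The family of a sequence and its class follow its first name. A hairpin match is letter for letter on the listed strand. The contig 30497 hairpin is listed 2 times, 1 base apart, and counted once. Named were the 8 most abundant members, 3p members with at least 10 reads in total, the predicted entry and members that passed; osa-miR156a_R+1 meets none of these and is named because every member is accounted for. Also named are the related families miR529, miR535 and miR172. The members and lists were chosen with earlier results of these data known. The tools were Python 3.11.15, numpy 2.4.6, scipy 1.17.1, pandas 2.3.3, Biopython 1.88 and matplotlib 3.10.9.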

Additional observations from a re-analysis of the deposited data

How the results depend on the processing

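Of 44 alternative values of the 7 summary results, 25 kept to the reported value and 19 moved. A share kept if it lay within the SD over the 2 libraries, which the share of a single library always does. The normalized signal is the raw column times a constant per library, so it could change none of the shares. The 25 thus include values that could not move. Counting a single line per sequence gave 10.4% for the family in all listed reads, 63.4% for the leading sequence, 3.91% for the 3p arm, 86.0% for 21 nt and 31.6% for registered forms within the family, and 1 member that differed between libraries. Without the predicted entry these within-family shares were 57.1%, 2.33%, 79.4% and 38.4%. With at least 10 reads in both libraries the leading sequence held 56.3% and 1 member differed. The family held 8.24% with registered names only, 9.73% without entries proposed to be rRNA or tRNA fragments and 11.4% without loosely matched entries, where the total shrinks. With the family's reads as the expected split, 1 member differed. The member that still differed was aly-miR156a-5p_L+1 with single lines (exact binomial adjusted p = 0.0370) and with the family split (0.0289), and vca-miR156b-5p with the read minimum (0.0396), where aly-miR156a-5p_L+1 is not tested. Each call of aly-miR156a-5p_L+1 takes its listed 0 in library 1 as an exact count. Chosen after seeing the data, leaving out the 2 members found on no hairpin gave 57.4% for the leading sequence, 3.89% for the 3p arm and 38.6% for registered forms, and single lines ordered 53 pairs in place of 51. In single libraries the family's share ranged from 7.76% to 8.08%, the leading sequence's from 55.9% to 56.2%, the 3p arm's from 4.01% to 4.35%, that of 21 nt from 77.1% to 78.7% and that of registered forms from 37.6% to 37.7%. No paired analysis was possible because both libraries belong to a single group. Members under 10 reads in each library, where both have reads, have ratio intervals that span 2-fold in both directions, so differences of that size were not detectable for them. An SD over 2 libraries is itself imprecise, and reads of closely similar forms may be merged in a listed value.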

Other observations

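A predicted entry outside the naming rule lies on hairpins with the same 5p arm. It was noticed after the data were seen and is not counted in the family. Its sequence is given with the seed in capitals.

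PC-3p-37347_24: tGCTCACTcgtcttcctgtcagc

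It had 12 reads in library 1 and 12 in library 2, summed over 2 lines. Its hairpins, on contig 28565 (plus strand, 2879 to 3004) and contig 576770 (minus strand, 29 to 175), were 95.6% identical from the 5p start to its partner base. Both hold the 20-nt miR156 form letter for letter, preceded by C, so the aly-miR156a-5p_L+1 sequence is found on them as well. The predicted entry itself is found letter for letter on neither, because the base after its seed is C and theirs is T.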
